A study of Mus musculus with 6 samples.

Results

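The genes described here encode the subunits of the 5 oxidative phosphorylation (OXPHOS) complexes of the mitochondrial inner membrane, and they were followed across all 6 RNA-seq libraries of a study of targeted gene activation in A20 cells, a B cell lymphoma line from BALB/C mice. Members were taken by name and genome. They were the protein-coding genes of the mitochondrial genome together with the nuclear genes whose symbols match the standard names of subunits of NADH dehydrogenase (Nduf), succinate dehydrogenase (Sdh), the cytochrome bc1 complex (Uqcr), cytochrome c oxidase (Cox4 to Cox8) and ATP synthase (Atp5). This gave 98 of the 27179 genes counted, of which 13 lie on the mitochondrial genome and 85 in the nucleus. The rule itself uses no measured value. In bulk RNA, fewer cells of a type and less RNA per cell cannot be told apart. The mitochondrial members comprise 7 subunits of complex I, 1 of complex III, 3 of complex IV and 2 of complex V, and the nuclear members 36 of complex I, 4 of complex II, 9 of complex III, 18 of complex IV and 18 of complex V. Among the nuclear members, 2 are annotated as pseudogenes (Atp5c1-ps and Uqcrh-ps1).

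The libraries fall into 3 groups with 2 replicates each. WT A20 cells carried no construct. Control sgRNA and Cd4 sgRNA cells were A20 cells transduced with the TETact-v3 system, in which a catalytically dead Cas9 with a SunTag array recruits the catalytic domain of the DNA demethylase TET1 while the sgRNA's MS2 aptamers recruit a p65-hsf1 activator. They carried a non-targeting sgRNA or an sgRNA against the Cd4 promoter, were sorted for the reporters of the constructs and were collected at day 7 after sgRNA transduction. The effects of the constructs, of the transduction and of the sort cannot be told apart in a comparison with WT A20, since the sources describe none of these steps for the WT A20 cells. The study describes its libraries as made from independently repeated samples, while the labels give only replicate numbers, and p-values measure the spread between these libraries.

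The respiratory chain passes electrons from NADH (complex I) or succinate (complex II) through complex III to oxygen at complex IV, and the protons pumped on the way drive ATP synthesis by complex V. The subunits come from both genomes. The mitochondrial genome encodes hydrophobic core subunits of complexes I, III, IV and V and is transcribed as long polycistronic RNAs that are cut into single mRNAs, whereas complex II and all remaining subunits are made from separately controlled nuclear genes and imported.

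Total counts per library ranged from 23194920 in WT A20 replicate 2 to 121623410 in control sgRNA replicate 1. Levels are counts-per-million values (CPM) of the nuclear counts of a library after TMM scaling on nuclear genes, so a change in the mitochondrial mRNAs does not shift the scale of the nuclear ones. On this scale the detection floor of 3 counts was worth 0.0270 to 0.140 CPM, depending on the library. Cd4 itself had 30959 and 40422 counts in the Cd4 sgRNA libraries and 17 to 127 in the other 4. All 8 B cell markers examined were above the floor in every library, with summed levels of 2167 to 2168 CPM in WT A20 and 1321 to 1585 CPM in the transduced cells, while the summed level of 6 T cell markers was at most 0.383 CPM and that of 6 fibroblast markers at most 0.532 CPM. Summed levels of 6 myeloid markers ran from 2.10 to 7.28 CPM, and those of 4 erythroid markers were 21.8 to 22.4 CPM in WT A20 and 1.87 to 3.26 CPM in the transduced cells. The 2 control sgRNA libraries stood apart from each other. Their counts over nuclear genes differed with a chi-square of 243 per degree of freedom, against 7.84 for the WT A20 and 6.82 for the Cd4 sgRNA pair, a value that also grows with depth.

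The mitochondrial mRNAs were higher in the transduced cells than in WT A20 cells. The 13 genes took 2.58% (95% Wilson interval 2.57 to 2.58%) and 2.60% (2.60 to 2.61%) of all counts in the WT A20 libraries, 6.38% (6.37 to 6.38%) and 11.2% (11.2 to 11.2%) in the control sgRNA libraries and 5.75% (5.74 to 5.76%) and 6.68% (6.68 to 6.69%) in the Cd4 sgRNA libraries. These intervals cover counting error only. With p-values of edgeR's quasi-likelihood test adjusted by Benjamini-Hochberg across 12443 genes, 13 of 13 were higher in control sgRNA than in WT A20 at an adjusted p below 0.05, where 15.1% of all genes tested were, with a median log2 fold change of 1.76 and a range from 0.43 to 2.66. In Cd4 sgRNA against WT A20, 12 of 13 were higher, where 10.5% of all genes were, with a median of 1.51 and a range from 0.51 to 2.10. No mitochondrial member was lower in either comparison. In both, the transduced libraries lay above the WT A20 libraries without overlap for 13 of 13 genes, as they did for 33.4% of all genes tested in the first comparison and 40.5% in the second. The median over all genes tested was -0.00019 in the first comparison and 0.0058 in the second.

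**Figure D1:**
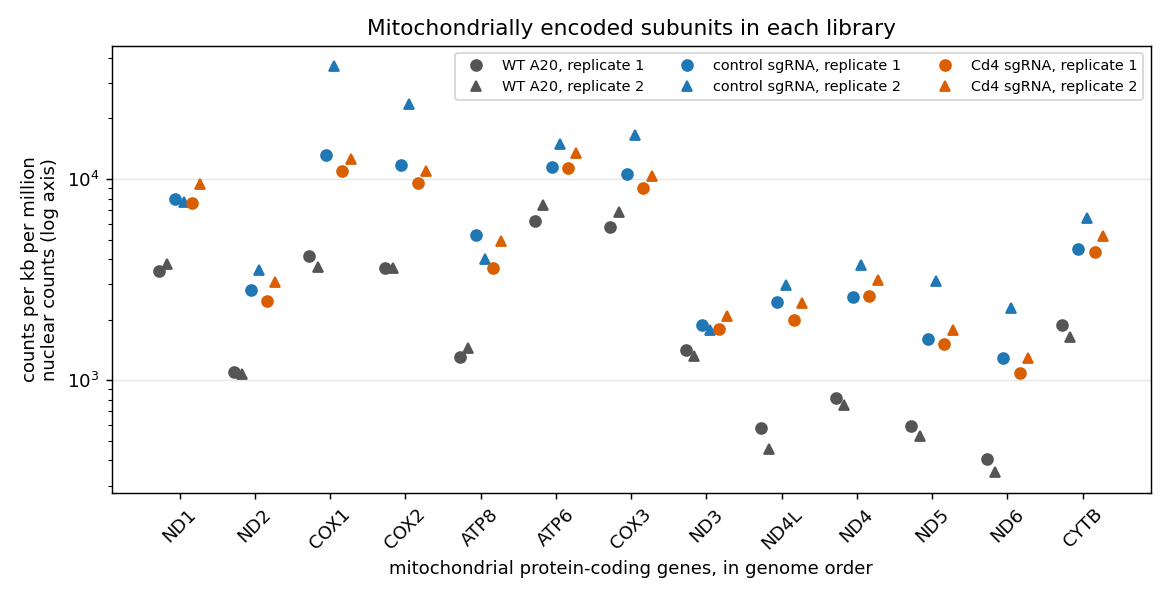
Level of each mitochondrial protein-coding gene in each library, in CPM per kb of counted length on a log axis, with genes in genome order, circles for replicate 1 and triangles for replicate 2. All 13 genes sat higher in the control sgRNA and Cd4 sgRNA libraries than in the WT A20 libraries. Control sgRNA replicate 2 was the highest library at all genes but ND1, ND3 and ATP8, and by the widest gap at COX1 and COX2.

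Among the complex I genes, ND4L and ND4 moved most in Cd4 sgRNA against WT A20. ND4L, which encodes a small membrane subunit, had 171 and 135 CPM in WT A20, 725 and 884 CPM in control sgRNA and 594 and 718 CPM in Cd4 sgRNA. The 3 groups did not overlap. Its log2 fold change was 2.39 ± 0.18 (SE; adjusted p = 0.0011, edgeR) in control sgRNA and 2.10 ± 0.17 (adjusted p = 0.0017) in Cd4 sgRNA against WT A20. ND4, a proton-pumping subunit whose reading frame overlaps that of ND4L by 7 bases, had 1120 and 1033 CPM in WT A20, 3579 and 5162 CPM in control sgRNA and 3621 and 4321 CPM in Cd4 sgRNA, a log2 difference from WT A20 of 2.02 ± 0.20 and 1.88 ± 0.20. ND5, ND6 and ND2, further membrane subunits, had log2 fold changes of 2.07, 2.25 and 1.54 in control sgRNA and of 1.55, 1.65 and 1.35 in Cd4 sgRNA. ND1, which helps to form the quinone site, rose by 1.11 ± 0.14 in control sgRNA and 1.23 ± 0.14 in Cd4 sgRNA. ND3 moved least of all 13, from 491 and 460 CPM in WT A20 to 658 and 620 CPM in control sgRNA and 626 and 725 CPM in Cd4 sgRNA. Its log2 fold changes were 0.43 ± 0.11 (adjusted p = 0.029) and 0.51 ± 0.11 (adjusted p = 0.022).

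In complex III the only mitochondrial member is CYTB, the cytochrome b that carries the quinone sites of the complex. It had 2144 and 1874 CPM in WT A20, 5134 and 7295 CPM in control sgRNA and 4982 and 5956 CPM in Cd4 sgRNA. Both transduced groups lay above WT A20 and overlapped each other, with log2 fold changes of 1.63 ± 0.20 (adjusted p = 0.0039, edgeR) and 1.44 ± 0.20 (adjusted p = 0.0074).

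In complex IV, COX1 (the mitochondrial catalytic subunit of cytochrome c oxidase, not the cyclooxygenase of the same name) had 6436 and 5627 CPM in WT A20, 20301 and 56189 CPM in control sgRNA and 16925 and 19443 CPM in Cd4 sgRNA. Control sgRNA replicate 2 thus held a level well above every other library. The log2 fold change was 2.66 ± 0.45 (adjusted p = 0.0098, edgeR) in control sgRNA and 1.59 ± 0.44 (adjusted p = 0.048) in Cd4 sgRNA against WT A20. COX2, which takes electrons from cytochrome c, had 2463 and 2480 CPM in WT A20, 8078 and 16101 CPM in control sgRNA and 6516 and 7533 CPM in Cd4 sgRNA. Control sgRNA replicate 2 was again the highest library, with log2 fold changes of 2.29 ± 0.32 and 1.51 ± 0.31. COX3, the remaining core subunit, had 4533 and 5397 CPM in WT A20, 8302 and 12933 CPM in control sgRNA and 7107 and 8153 CPM in Cd4 sgRNA. Its log2 fold change of 1.10 ± 0.23 in control sgRNA passed the threshold (adjusted p = 0.017), and its value of 0.62 ± 0.22 in Cd4 sgRNA did not (adjusted p = 0.096), although the libraries did not overlap.

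The composition of the mitochondrial mRNA pool differed between the control sgRNA replicates. COX1 made up 23.3% and 19.9% of the counts on the 13 genes in WT A20, 29.1% and 43.9% in control sgRNA and 27.3% and 26.6% in Cd4 sgRNA. Without COX1, the other 12 genes still took 1.98% and 2.09% of all counts in WT A20, 4.52% and 6.30% in control sgRNA and 4.18% and 4.91% in Cd4 sgRNA. ATP8 went the other way in control sgRNA replicate 2, at 0.641% of the pool against 1.54% in replicate 1. ND1 held 10.97% of the pool in control sgRNA replicate 1 and 5.74% in replicate 2, against 11.8% to 12.8% in the other 4 libraries.

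The complex V genes ATP8 and ATP6 encode membrane subunits of the proton channel and share bases on the mitochondrial genome, which bears on how their reads can be counted. ATP8 (chrM:7766-7969, GRCm38, plus strand, 204 bases) overlaps the start of ATP6 (chrM:7927-8607) by 43 bases, shown in capitals in the GENCODE M21 transcript sequence below, so that 161 of its bases are its own.
ATP8: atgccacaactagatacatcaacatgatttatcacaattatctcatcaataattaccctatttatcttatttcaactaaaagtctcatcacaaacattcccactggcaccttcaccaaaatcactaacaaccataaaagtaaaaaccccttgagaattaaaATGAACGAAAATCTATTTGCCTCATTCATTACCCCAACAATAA
How the counting treated reads that cross into both genes is not stated. ATP8 had 267 and 295 CPM in WT A20, 1077 and 821 CPM in control sgRNA and 735 and 1002 CPM in Cd4 sgRNA, with log2 fold changes of 1.76 ± 0.20 (adjusted p = 0.0030, edgeR) and 1.63 ± 0.20 (adjusted p = 0.0053). ATP6 had 4196 and 5037 CPM in WT A20, 7795 and 10176 CPM in control sgRNA and 7687 and 9171 CPM in Cd4 sgRNA. For both genes the transduced libraries lay above WT A20, and the log2 fold changes of ATP6 were the smaller at 0.96 ± 0.18 (adjusted p = 0.013) and 0.87 ± 0.18 (adjusted p = 0.022). ND6 is the only member on the minus strand of the mitochondrial genome and overlaps ND5 by 14 bases, and since the kit does not mark strand, its counts cannot be told apart from antisense RNA of the other strand.

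Parts of the mitochondrial genome also exist as copies in the nuclear genome, and members differed in how far their sequence is shared with them. In GENCODE M21 transcripts of GRCm38, every 66-base window (the read length) of each member was looked up in the transcripts of all other genes. COX2, ATP6, COX3, ND3 and ND4L shared 97.9% to 99.9% of their windows with annotated pseudogenes, ND4 61.8%, COX1 43.9%, ND2 6.58% and ND5 2.90%. ND1, ATP8, ND6 and CYTB shared none with an annotated transcript of another gene, and nuclear sequence outside annotated transcripts was not searched. Of the 12 pseudogenes involved, 7 lie side by side on the minus strand at chr1:24611535-24616197. ATP8 lies between COX2 and ATP6 on the mitochondrial genome. On chromosome 1 the ATP6 copy ends at 24614651 and the COX2 copy starts at 24614885. Whether the unannotated bases between them hold a copy of ATP8 was not tested. None of the 12 is a row of the count files, and how reads with several equal placements were treated is not stated, so the printed levels, pool shares and ratios of these genes may be too low. The 6 members with over 50% of shared windows had median log2 fold changes of 1.56 in control sgRNA and 1.19 in Cd4 sgRNA against WT A20, with 6 and 5 of them higher. The 7 other members, ATP8 among them, had medians of 1.76 and 1.55, with 7 of 7 higher in both. The 3 members with the smallest changes in Cd4 sgRNA against WT A20 (ND3, COX3 and ATP6) and the one with the largest (ND4L) all belonged to the first set. Whether A20 cells carry these copies, and the part of shared sequence in the size of a change, was not tested.

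The ratio of mitochondrially to nuclear encoded mRNA within a library does not depend on library size. Taken as the difference of mean log2 levels per kb over complexes I, III, IV and V, it was 4.04 and 4.10 in WT A20, 5.58 and 5.97 in control sgRNA and 5.52 and 5.80 in Cd4 sgRNA (mean ± SD 4.07 ± 0.04, 5.77 ± 0.28 and 5.66 ± 0.20, n = 2 each). Every transduced library was above both WT A20 libraries, and the transduced groups overlapped. By complex, the ratio went from 3.29 ± 0.04 in WT A20 to 4.97 ± 0.25 in control sgRNA and 4.90 ± 0.17 in Cd4 sgRNA for complex I, and from 4.24 ± 0.02 to 5.85 ± 0.35 and 5.68 ± 0.19 for complex III. For complex IV it went from 5.94 ± 0.12 to 8.03 ± 0.45 and 7.84 ± 0.27, and for complex V from 4.38 ± 0.21 to 5.71 ± 0.00037 and 5.74 ± 0.22. The small SD of complex V in control sgRNA hides opposite moves between its replicates. ATP8 had 1077 and 821 CPM there, and ATP6 7795 and 10176 CPM. In these means each gene weighs alike, whatever its level. The ratio of summed levels per kb, not in log2, was smaller over the same complexes. It was 2.22 and 2.42 in WT A20, 6.25 and 9.77 in control sgRNA and 5.72 and 6.84 in Cd4 sgRNA. An exact permutation test of 2 libraries against 2 allows no p below 0.33, so no p-value is given for these ratios.

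**Figure D2:**
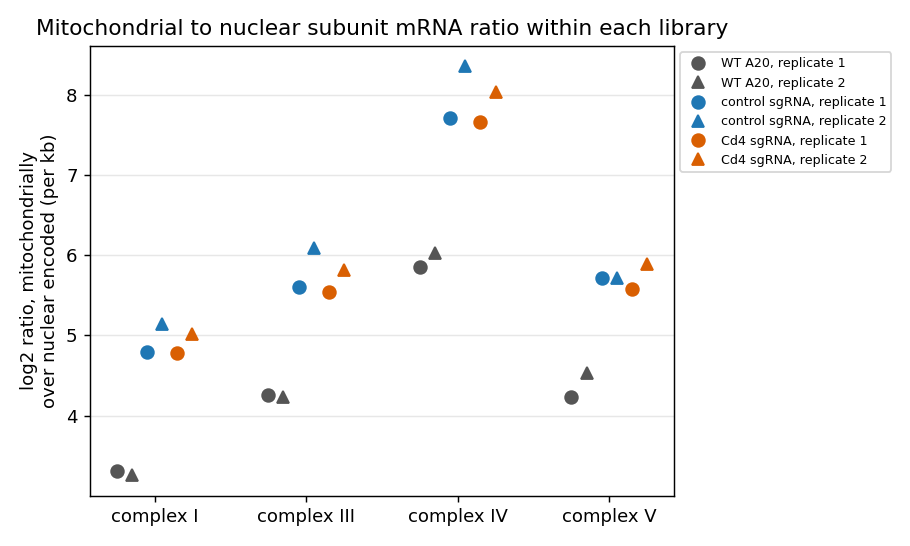
Log2 ratio of mitochondrially to nuclear encoded subunit mRNA (difference of mean log2 counts per kb) in each library for the complexes with subunits from both genomes. The ratio is higher in every control sgRNA and Cd4 sgRNA library than in the WT A20 libraries for all 4 complexes, with complex IV at 5.94 in WT A20 and 7.84 to 8.03 in the transduced groups.

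The nuclear members showed no such rise. Together they took 1.496% and 1.46% of nuclear counts in WT A20, 1.36% and 1.44% in control sgRNA and 1.36% and 1.36% in Cd4 sgRNA. Of the 85, 80 passed the filter on low counts. In control sgRNA against WT A20, 2 of the 80 were higher, where 15.1% of all genes tested were, and 5 were lower (6.25%), where 13.7% of all genes were, with a median log2 fold change of -0.08. In Cd4 sgRNA against WT A20, 2 were higher, where 10.5% of all genes were, and 21 were lower (26.2%), where 11.1% of all genes were, with a median of -0.15. The changes were small beside those of the mitochondrial genes, with 75 of 80 values within 0.5 of 0 in the first comparison and 62 of 80 in the second. These counts rested on which libraries set the spread. In control sgRNA against WT A20, 0 nuclear members were lower without either WT A20 library, 1 without either Cd4 sgRNA library, 21 without control sgRNA replicate 1 and 28 without its replicate 2, and the higher counts were 0, 0, 16 and 9 in the same order. Without control sgRNA replicate 1 or 2, 30.9% and 29.3% of all genes tested were lower and 32.9% and 30.3% higher. In Cd4 sgRNA against WT A20, leaving out a control sgRNA library raised the calls of nuclear members in both directions, as it did those over all genes tested. With any 1 library left out, the nuclear median of this comparison ran from -0.20 to -0.11. Without any single WT A20 or Cd4 sgRNA library, 0 nuclear members were lower or higher in it. The mitochondrial calls also fell when a WT A20 library was left out, and in Cd4 sgRNA when a Cd4 sgRNA library was. Calls over all genes tested fell as well without a WT A20 or Cd4 sgRNA library, and each such fit leaves 1 library in a group. All 13 mitochondrial log2 fold changes against WT A20 remained positive with any 1 library left out. Their medians ran from 1.51 to 1.88 in control sgRNA and from 1.39 to 1.61 in Cd4 sgRNA.

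**Figure D3:**
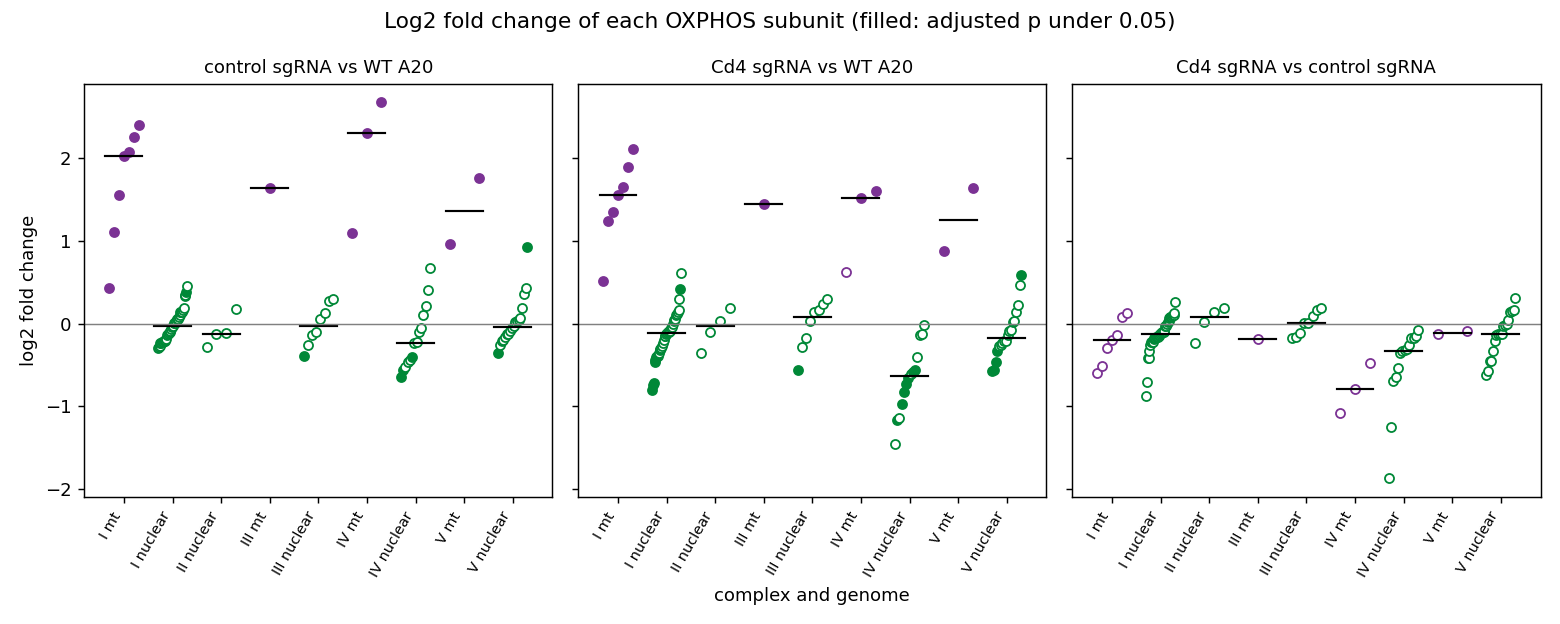
Log2 fold change of each member tested, by complex and genome (purple, mitochondrial; green, nuclear), in the 3 comparisons. Filled points passed an adjusted p of 0.05 in edgeR's quasi-likelihood test, open points did not, and bars are medians. Mitochondrial members lie above 0 in both comparisons with WT A20, and nuclear complex IV members lie below 0 in both comparisons of Cd4 sgRNA.

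In complex I, 36 nuclear members were tested. Only Ndufa3, an accessory subunit, was higher in control sgRNA, from 29.3 and 26.2 CPM in WT A20 to 35.3 and 37.0 CPM (log2 fold change 0.38 ± 0.10, adjusted p = 0.036, edgeR), and none was lower. In Cd4 sgRNA against WT A20, 9 were lower and 1 was higher. Ndufa7, an accessory subunit of the NADH-oxidising arm, had 94.2 and 91.2 CPM in WT A20, 70.7 and 79.8 CPM in control sgRNA and 57.2 and 55.8 CPM in Cd4 sgRNA. Its libraries fell into 3 separate ranges, and its log2 fold changes were -0.30 ± 0.09 (adjusted p = 0.055) in control sgRNA and -0.71 ± 0.09 (adjusted p = 0.0064) in Cd4 sgRNA. The other 8 lower members were Ndufa1, Ndufa2, Ndufa4, Ndufb3, Ndufb5, Ndufb11, Ndufs7 and Ndufv3, with log2 fold changes from -0.31 to -0.80. Ndufa4 is counted here by its name, although its protein is also found in complex IV. Ndufb10 was the member that rose, from 64.9 and 66.2 CPM in WT A20 to 84.8 and 90.6 CPM in Cd4 sgRNA (0.42 ± 0.11, adjusted p = 0.042). Ndufb4, with the highest value of the complex in control sgRNA, had 2.05 to 3.57 CPM in all libraries and did not pass (0.45 ± 0.25, adjusted p = 0.22). Of its windows, 35.9% were shared with other genes. Among the lower members, Ndufs7, which holds an iron-sulfur cluster on the path to the quinone, had a log2 fold change against WT A20 below 0 in Cd4 sgRNA (-0.31 ± 0.08, edgeR adjusted p = 0.040).

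Complex II, encoded by nuclear genes alone, was called in no comparison. Sdha, the flavin subunit that oxidises succinate, had 363 and 359 CPM in WT A20, 413 and 399 CPM in control sgRNA and 411 and 412 CPM in Cd4 sgRNA. The transduced libraries lay above WT A20, with log2 fold changes of 0.17 ± 0.08 (adjusted p = 0.16, edgeR) and 0.19 ± 0.08 (adjusted p = 0.14). Sdhd, a membrane anchor, had 24.4 and 26.7 CPM in WT A20, 22.3 and 19.5 CPM in control sgRNA and 23.4 and 24.3 CPM in Cd4 sgRNA, with log2 fold changes of -0.29 ± 0.11 (adjusted p = 0.10) and -0.10 ± 0.12 (adjusted p = 0.58). The iron-sulfur subunit Sdhb and the other anchor Sdhc had values of -0.12 and -0.13 in control sgRNA and 0.03 and -0.36 in Cd4 sgRNA.

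In complex III, 8 of 9 nuclear members were tested and 1 was called. It was lower in both transduced groups (12.5%), where 13.7% of all genes tested were in control sgRNA and 11.1% in Cd4 sgRNA. Uqcrq, a small subunit next to cytochrome b, had 113 and 105 CPM in WT A20, 79.2 and 87.5 CPM in control sgRNA and 75.2 and 73.4 CPM in Cd4 sgRNA. Both transduced groups lay below WT A20, with log2 fold changes of -0.39 ± 0.09 (adjusted p = 0.025, edgeR) and -0.55 ± 0.09 (adjusted p = 0.012). Its annotated span overlaps that of Gdf9 by 58 bases. Uqcrb, another small subunit, had the highest value of the complex in control sgRNA at 0.29 ± 0.14 (adjusted p = 0.16). The large core proteins Uqcrc1 and Uqcrc2 had log2 fold changes of 0.05 and -0.13 in control sgRNA and 0.23 and 0.03 in Cd4 sgRNA. Uqcr11 was not tested, with at most 3 counts in any library.

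Nuclear complex IV members were the group with the lowest values in Cd4 sgRNA. Of 14 tested, 7 were lower than in WT A20 (50.0%, against 11.1% of all genes) and 14 of 14 log2 fold changes were negative, with a median of -0.64. On nuclear library size without TMM, without the annotation filter or with thinned control sgRNA counts, 13 of 14 were negative. In control sgRNA against WT A20, 3 were lower (21.4%, against 13.7%), 10 of 14 were negative and the median was -0.23. The 7 were Cox4i1, Cox6a1, Cox6b1, Cox6c, Cox7a2, Cox7a2l and Cox8a, and the 3 were Cox7a2, Cox7a2l and Cox8a. Without any single WT A20 or Cd4 sgRNA library, the calls in Cd4 sgRNA were lost, and calls over all genes tested fell as well. The medians of the complex IV members were then from -0.61 to -0.69, with at least 12 of 14 negative. Leaving out control sgRNA replicate 1 or 2 gave 10 and 11 lower members in Cd4 sgRNA, where 26.8% and 29.0% of all genes were lower, and 6 and 8 in control sgRNA, where 30.9% and 29.3% were. In control sgRNA, the calls of complex IV members also fell without a WT A20 or a Cd4 sgRNA library, as did those over all genes tested.

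Cox8a, a small membrane subunit, had 310 and 299 CPM in WT A20, 178 and 210 CPM in control sgRNA and 181 and 162 CPM in Cd4 sgRNA. Both transduced groups lay below WT A20 and overlapped each other, with log2 fold changes of -0.65 ± 0.11 (adjusted p = 0.010, edgeR) and -0.82 ± 0.11 (adjusted p = 0.0074). Cox6a1, the ubiquitous isoform of a regulatory subunit, had 311 and 294 CPM in WT A20, 187 and 260 CPM in control sgRNA and 162 and 147 CPM in Cd4 sgRNA. The 3 ranges were separate, with values of -0.43 ± 0.16 (adjusted p = 0.090) in control sgRNA and -0.97 ± 0.16 (adjusted p = 0.013) in Cd4 sgRNA. Cox6c, another small membrane subunit, followed the same order at 51.1 and 43.6 CPM in WT A20, 26.0 and 39.9 CPM in control sgRNA and 22.4 and 19.9 CPM in Cd4 sgRNA (-1.17 ± 0.22 in Cd4 sgRNA, adjusted p = 0.017). For these genes control sgRNA replicate 1 lay nearer to the Cd4 sgRNA libraries than replicate 2 did.

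Cox7a2l, a relative of Cox7a2 that joins complex IV to complex III, had 237 and 239 CPM in WT A20, 142 and 182 CPM in control sgRNA and 148 and 140.0 CPM in Cd4 sgRNA. It was lower in both transduced groups, by a log2 value of -0.56 ± 0.13 (adjusted p = 0.023, edgeR) in control sgRNA and -0.73 ± 0.13 (adjusted p = 0.014) in Cd4 sgRNA. Cox7a2 had 80.9 and 90.1 CPM in WT A20, 63.4 and 66.2 CPM in control sgRNA and 51.7 and 56.7 CPM in Cd4 sgRNA, with values of -0.40 ± 0.10 (adjusted p = 0.028) and -0.66 ± 0.10 (adjusted p = 0.0092). Its span overlaps that of Tmem30a by 2482 bases. Cox4i1, the main isoform of subunit 4, fell from 407 and 397 CPM to 285 and 262 CPM in Cd4 sgRNA (-0.56 ± 0.11, adjusted p = 0.017), and Cox6b1, the subunit that helps the complex to dimerise, from 135 and 117 CPM to 85.8 and 82.3 CPM (-0.58 ± 0.10, adjusted p = 0.012). In control sgRNA they lay between the other groups, at 317 and 368 CPM for Cox4i1 and 106 and 109 CPM for Cox6b1.

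Isoforms known from other tissues or conditions were low. Cox4i2, the subunit 4 isoform known from lung and hypoxia, had 2.20 and 1.87 CPM in WT A20, 1.56 and 4.03 CPM in control sgRNA and 1.16 and 0.429 CPM in Cd4 sgRNA, with log2 fold changes of 0.40 ± 0.55 (adjusted p = 0.61, edgeR) and -1.46 ± 0.72 (adjusted p = 0.19). Its annotated span overlaps Bcl2l1, and without strand reads from the shared bases cannot be assigned with certainty. Cox7a1, the heart and muscle isoform, had 2.65 and 2.29 CPM in WT A20, 2.19 and 3.24 CPM in control sgRNA and 1.25 and 1.04 CPM in Cd4 sgRNA (-1.14 ± 0.32 in Cd4 sgRNA, adjusted p = 0.051). Cox6a2, the other muscle isoform, was at 0.549 to 1.43 CPM in all libraries, with no call. Cox6b2 had at most 3 counts and Cox8b at most 1 count in any library, and Cox7b2 and Cox8c had 0 counts, which with a floor of 3 counts allows up to between 0.0270 and 0.140 CPM. Cox7b, the common counterpart of Cox7b2, had -0.10 ± 0.12 in control sgRNA and -0.41 ± 0.12 in Cd4 sgRNA (adjusted p = 0.060). Cox7c had the highest value of the complex in control sgRNA, 0.66 ± 0.20 (adjusted p = 0.053), and -0.02 ± 0.22 in Cd4 sgRNA, at 3.32 to 6.76 CPM, and 21.6% of its windows were shared with other genes.

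**Figure D4:**
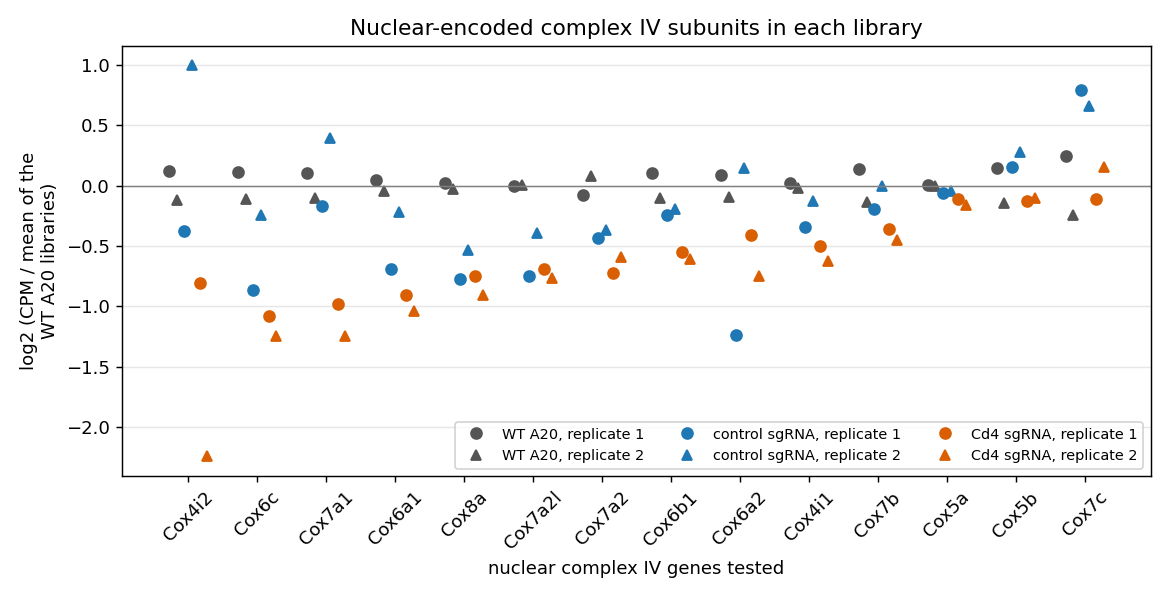
Log2 of CPM over the mean of the WT A20 libraries for the 14 nuclear complex IV genes tested, in each library, ordered by the mean of the Cd4 sgRNA libraries. The Cd4 sgRNA libraries lie below the WT A20 libraries for 12 of 14 genes, against 39.3% of all genes tested, and the control sgRNA libraries lie below them for 8, against 33.7%.

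The promoters of the nuclear members were read for letters of factors known to bind respiratory genes, and those of Cox6a1 and Cox8a are shown because both genes were lower in Cd4 sgRNA and their promoters hold such letters. RefSeq promoters of GRCm38.p6, 250 bases before to 50 bases after a start site, were at hand for 68 of 83 protein-coding nuclear members, as 73 sequences. Capitals mark the NRF1 motif GCGCANGCG or the ETS motif CCGGAAG (bound by GABPA) on either strand. The first capitals in Cox6a1 hold 2 overlapping NRF1 matches, 1 per strand, and its later capitals hold 1 more NRF1 and 1 ETS match. Cox8a holds 2 ETS matches.
Cox6a1, chr5:115348909-115349208, minus strand: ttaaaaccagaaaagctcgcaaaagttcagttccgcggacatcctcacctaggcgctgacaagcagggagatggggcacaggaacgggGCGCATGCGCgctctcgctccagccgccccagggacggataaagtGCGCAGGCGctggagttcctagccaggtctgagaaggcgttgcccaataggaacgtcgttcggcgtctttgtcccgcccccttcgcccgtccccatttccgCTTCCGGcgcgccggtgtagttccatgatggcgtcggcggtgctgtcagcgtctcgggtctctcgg
Cox8a, chr19:7217567-7217866, minus strand: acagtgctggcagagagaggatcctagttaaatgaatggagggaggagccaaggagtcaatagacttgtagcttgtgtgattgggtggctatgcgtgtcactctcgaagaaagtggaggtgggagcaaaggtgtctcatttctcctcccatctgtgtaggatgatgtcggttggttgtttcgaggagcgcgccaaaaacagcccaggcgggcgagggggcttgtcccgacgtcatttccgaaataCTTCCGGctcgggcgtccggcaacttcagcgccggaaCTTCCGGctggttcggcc
NRF1 letters were in 28.8% of the members' promoters and in 6.25% of all 32851 promoters in the table, ETS letters in 23.3% and 8.86%, and the E-box CACGTG in 9.59% and 7.15%. Among the 13 complex IV promoters, 1 held NRF1 and 3 held ETS letters, the 3 being those of Cox6a1, Cox6b1 and Cox8a. Of the 17 promoters of members called lower in Cd4 sgRNA against WT A20, 11.8% held NRF1 and 29.4% ETS letters, and of the 56 other member promoters 33.9% and 21.4%. These are descriptions of sequence, without a test.

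In complex V, 18 nuclear members were tested. Against WT A20, 1 was higher and 1 lower in control sgRNA, where 15.1% and 13.7% of all genes tested were. In Cd4 sgRNA 1 was higher and 4 were lower (22.2%), where 10.5% and 11.1% of all genes tested were. Atp5k, which encodes the small subunit e of the membrane part, had 25.7 and 17.2 CPM in WT A20, 45.6 and 36.2 CPM in control sgRNA and 26.8 and 33.0 CPM in Cd4 sgRNA. It was the complex V member called higher in control sgRNA (0.92 ± 0.22, adjusted p = 0.028, edgeR), with both transduced groups above WT A20, and was not called in Cd4 sgRNA (0.47 ± 0.22, adjusted p = 0.18). Atp5a1, the alpha subunit of the catalytic head, had 2287 and 2273 CPM in WT A20, 1832 and 1745 CPM in control sgRNA and 1966 and 1971 CPM in Cd4 sgRNA, with log2 fold changes of -0.35 ± 0.09 (adjusted p = 0.033) and -0.21 ± 0.09 (adjusted p = 0.14). Its partner Atp5b, with the highest level per kb of all nuclear members in WT A20 (1549 ± 12.1 CPM per kb, SD, n = 2), had values of -0.09 and -0.22 and no call. In Cd4 sgRNA, 4 small subunits were lower, Atp5e (-0.55), Atp5j2 (-0.33), Atp5l (-0.58) and Atp5mpl (-0.47), and Atp5l was the nuclear member that shared over 50% of its windows with other genes. The genes Atp5g1, Atp5g2 and Atp5g3 encode the same mature proton-carrying c subunit. Atp5g1 had 64.9 and 65.3 CPM in WT A20, 100.0 and 74.9 CPM in control sgRNA and 96.3 and 98.9 CPM in Cd4 sgRNA, and was called higher in Cd4 sgRNA (0.58 ± 0.14, adjusted p = 0.034). Atp5g3, the most abundant of the 3, ranged from 220.2 to 332 CPM over all libraries and Atp5g2 from 1.71 to 4.02 CPM, with no call. Of the windows of Atp5g2, 36.7% were shared with other genes.

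Nuclear OXPHOS genes are short, and their values moved with length in the comparisons of Cd4 sgRNA. The counted length had a median of 669 bases over the 80 members and 2690 bases over the 12430 nuclear genes tested. In Cd4 sgRNA against WT A20, the 44 members under 700 bases had a median log2 fold change of -0.26 and the 36 longer ones of -0.09, and 15 and 6 of them were called lower. The 663 nuclear genes under 700 bases of any function had a median of -0.17, with 16.4% of them lower, and the 11767 longer genes one of 0.01. In control sgRNA against WT A20 the medians were -0.10 and -0.04 for the shorter and longer members and -0.08 and 0.0052 for all genes. Across members, Spearman's rho of length with the log2 fold change was -0.06 in control sgRNA and 0.27 in Cd4 sgRNA against WT A20 and 0.57 in Cd4 sgRNA against control sgRNA, and across all nuclear genes 0.14, 0.16 and 0.02. Genes share libraries and are no replicates, so no p is given. In an alternative fit chosen after the data were seen, each library's trend with length was taken out. The median of the nuclear members was then -0.0201 in Cd4 sgRNA against WT A20 and 11 were lower, where 10.6% of all genes were. The complex IV members kept a median of -0.47, with 11 of 14 negative and 7 lower, and the median of the mitochondrial members was 1.59.

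**Figure D5:**
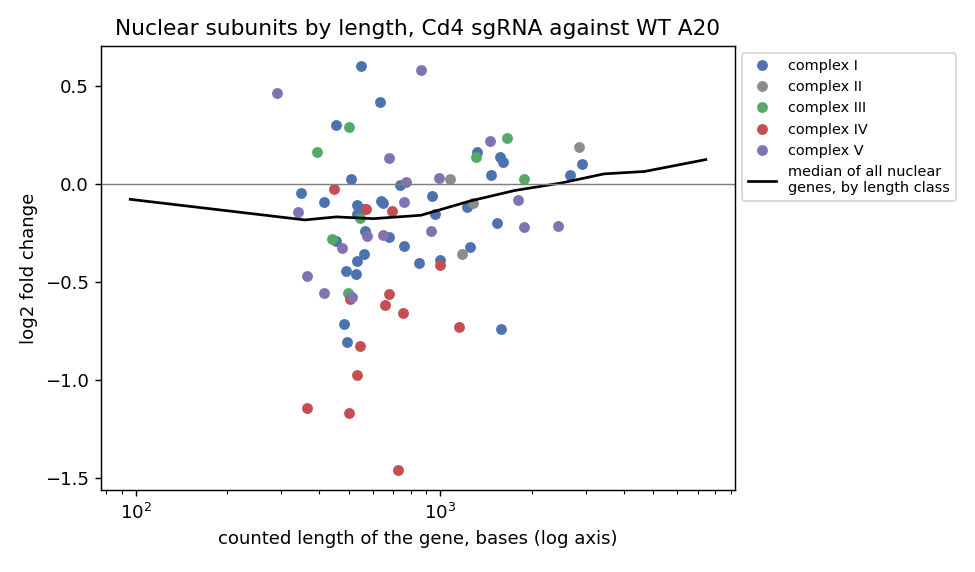
Log2 fold change in Cd4 sgRNA against WT A20 of the 80 nuclear members tested against counted length in bases on a log axis, coloured by complex, with the median of all nuclear genes in length classes as a line. The 44 members under 700 bases had a median of -0.26 against -0.17 for all genes of that length, and the lowest value is that of the complex IV gene Cox4i2 at -1.46.

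Between the groups that both carried TETact-v3, few differences passed. In Cd4 sgRNA against control sgRNA, 0 of 13 mitochondrial and 0 of 80 nuclear members were called in edgeR's test in either direction, where 0.0321% of all genes tested were higher and 0.0563% were lower. At an unadjusted p under 0.05 there were 2 mitochondrial and 18 nuclear members, where 25.4% of all genes were. All 18 nuclear members were lower, where 14% of all genes were. DESeq2 called 1 mitochondrial and 11 nuclear members lower, where it called 7.13% of all genes lower. VoomLmFit called 0, where it called 0.0482% of all genes lower. The libraries of the 2 groups did not overlap for ND4L, COX1, COX2 and COX3, each lower in Cd4 sgRNA, 4 of 13 where 30.2% of all genes lay lower without overlap. The mitochondrial median was -0.19, with values from -1.07 for COX1 (SE 0.43, adjusted p = 0.19) to 0.12 for ND1. The nuclear median was -0.13, and 14 of 14 complex IV values were negative with a median of -0.33. With control sgRNA replicate 1 left out, the test called 8 mitochondrial members lower, and 39 nuclear members lower and 13 higher, where 30.8% and 30.2% of all genes were called. With replicate 2 left out the counts were 0 for the mitochondrial members and 14 and 1 for the nuclear members, where 12.5% and 11.7% were called, and the mitochondrial median was -0.02. This comparison, like the pair against WT A20, shares its libraries with the others.

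Genes that serve the mitochondrial genome and its transcripts were examined as lists beside the members. Against WT A20, 15.1% of all genes tested were higher in control sgRNA and 10.5% in Cd4 sgRNA. Of 11 genes of mitochondrial transcription, 1 was higher against WT A20 in each transduced group. This was Tfb1m, a methyltransferase of the small ribosomal RNA, with 9.40 and 10.2 CPM in WT A20, 17.4 and 18.1 CPM in control sgRNA and 14.1 and 13.8 CPM in Cd4 sgRNA (log2 fold change 0.86 ± 0.11 and 0.51 ± 0.12, edgeR adjusted p = 0.0045 and 0.028). The polymerase Polrmt and the packaging factor Tfam were not called, with values of -0.18 and 0.14 in control sgRNA and 0.15 and 0.23 in Cd4 sgRNA, and the list's median log2 fold changes were 0.09 and 0.23. Of 12 genes of mitochondrial DNA replication and nucleotide supply, 2 were higher and 2 lower in control sgRNA, where 15.1% and 13.7% of all genes were. In Cd4 sgRNA 1 was higher and 2 were lower, where 10.5% and 11.1% of all genes were. Top1mt, the mitochondrial topoisomerase, rose from 3.72 and 3.36 CPM in WT A20 to 11.2 and 12.7 CPM in control sgRNA and 9.58 and 8.79 CPM in Cd4 sgRNA, and Tk2, the mitochondrial thymidine kinase, fell from 12.8 and 14.1 CPM to 5.98 and 6.11 CPM and 6.35 and 6.53 CPM. The medians of this list were 0.02 and -0.0050. Of 19 genes of mitochondrial RNA processing and stability, 3 were higher in control sgRNA and 2 in Cd4 sgRNA, where 15.1% and 10.5% of all genes were. None was lower, where 13.7% and 11.1% of all genes were, and the medians were 0.06 and 0.31. Mtpap, the mitochondrial poly(A) polymerase, had 34.5 and 37.8 CPM in WT A20, 58.9 and 56.8 CPM in control sgRNA and 60.2 and 63.2 CPM in Cd4 sgRNA, with log2 fold changes of 0.68 ± 0.09 (adjusted p = 0.0048) and 0.78 ± 0.09 (adjusted p = 0.0050).

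Among 8 tested nuclear regulators of OXPHOS genes, with medians of 0.12 and 0.15, Myc was lower against WT A20 in both groups, from 183 and 188 CPM to 92.7 and 66.6 CPM in control sgRNA and 78.9 and 82.0 CPM in Cd4 sgRNA (log2 fold change -1.22 ± 0.16 and -1.20 ± 0.16, edgeR adjusted p = 0.0044 and 0.0066). Ppargc1b, a coactivator of mitochondrial genes, was higher in Cd4 sgRNA (1.24 ± 0.18, adjusted p = 0.0082), at 6.11 and 8.13 CPM in WT A20 and 16.6 and 16.4 CPM in Cd4 sgRNA. Its value in control sgRNA was 0.39 ± 0.17 (adjusted p = 0.14). Of 47 assembly factors, 5 were higher and 3 lower in control sgRNA and 2 higher and 3 lower in Cd4 sgRNA, with medians of 0.0031 and 0.06. Sdhaf3, which helps complex II to mature, rose by 1.53 ± 0.20 and 1.08 ± 0.22, Sdhaf1 of the same complex fell by 0.41 and 0.46, and Cox14, a complex IV assembly factor, fell by 0.63 and 0.79. Of 78 mitoribosomal proteins, 4 were higher and 5 lower in control sgRNA and 4 higher and 3 lower in Cd4 sgRNA, with medians of -0.03 and 0.09 and with Mrpl38 (0.63 and 0.58) and Mrpl54 (-0.49 and -0.45) at the smallest p in each direction. These 9 and 7 calls of 78, like those of the 47 assembly factors and the 8 regulators, compare with the 15.1% higher and 13.7% lower, and the 10.5% and 11.1%, of all genes.

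Among 17 tested electron carriers and other entry points, 2 were higher in control sgRNA and 3 in Cd4 sgRNA, where 15.1% and 10.5% of all genes were. They included Dhodh, which feeds electrons from pyrimidine synthesis (0.78 and 0.71). Etfb of the electron transfer flavoprotein was called in Cd4 sgRNA (0.40) and had 0.27 in control sgRNA, with an edgeR adjusted p of 0.054. The list's medians were 0.14 and 0.27. Of 14 citric acid cycle genes only Ogdh, the 2-oxoglutarate dehydrogenase, was called, higher with 0.76 and 0.52, beside the same shares of all genes. The list's medians were -0.02 and 0.08. Genes of respiration, glucose transport and glycolysis that are linked to the hypoxia factor HIF, Cox4i2 among them, formed a further list. Its medians were 0.40 in control sgRNA and -0.36 in Cd4 sgRNA against WT A20. Of 10 tested, 5 were higher in control sgRNA than in WT A20 (Slc2a1, Bnip3, Pdk1, Bnip3l and Mxi1), where 15.1% of all genes were. In Cd4 sgRNA 3 were lower than in WT A20 (Pgk1, Ldha and Higd1a), where 11.1% of all genes were. There, 2 fell short of control sgRNA (Slc2a1 and Bnip3), where 0.0563% of all genes did. Slc2a1, the glucose transporter, had 118 and 125 CPM in WT A20, 276 and 293 CPM in control sgRNA and 111 and 108 CPM in Cd4 sgRNA, a log2 fold change of -1.38 ± 0.09 (edgeR adjusted p = 0.0092) between the TETact-v3 groups. Pgk1, a glycolytic enzyme, had 691 and 683 CPM in WT A20, 399 and 649.6 CPM in control sgRNA and 297 and 255 CPM in Cd4 sgRNA. The part of these lists in the levels of the OXPHOS members was not tested.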

How the data were processed

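RNA-seq counts of 6 libraries (3 groups with 2 replicates, taken from the sample labels) were analysed. The authors isolated RNA with removal of genomic DNA, prepared poly(A) libraries, sequenced them as paired-end reads of 66 bases, and used Rsubread for alignment to mm10 (GRCm38) and featureCounts, with the RefSeq genes built into it, for counting by Entrez identifier. The files deposited by the authors hold unnormalised counts per gene beside the counted length in bases. How strand and reads shared between genes were treated, or reads with several equal placements, is not given in the sources used here. The series-wide table holds the same counts again and was left aside.

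Symbols, positions and gene types were looked up in a RefSeq gene table (GRCm38.p6) that matched 25275 of 27179 rows. The filters of the study (symbol present and unique, no ribosomal RNA or unclassified genes, filterByExpr defaults) were repeated, but the 13 mitochondrial protein-coding genes were kept, leaving 12443 genes that hold 96.9% to 97.6% of each library's counts. Library size and TMM factors came from nuclear genes. The test was edgeR 4.0.16 (glmQLFit with robust estimation and legacy = FALSE, then glmQLFTest, two-sided, R 4.3.3) with a term per group over all 6 libraries and Benjamini-Hochberg adjustment over all genes at 0.05, and "higher", "lower" and "called" refer to it. Standard errors are the log2 fold change over the square root of F. Levels between genes are compared only per kb. Replicates differed by more than counting noise and were kept apart. The scripts were tested on simulated counts.

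Members and lists were chosen with earlier results of these data known. Named genes were all mitochondrial members, the 3 nuclear members with the smallest p per direction and comparison among those called, the highest and lowest nuclear member of each complex in control sgRNA against WT A20, isoform genes with more than 3 counts, members that failed the filter, and per other list the called gene with the smallest p in each direction. Other genes named beside these were chosen after their values were seen. Alternatives were DESeq2 1.42.0 and voomLmFit of limma 3.58.1 (the study's test), RLE, nuclear library size without TMM, library size from all counts, other filters, only the 2 groups compared, thinned control sgRNA counts, a block for the replicate number, and leaving out each library. The earlier form of edgeR's test and the length correction were chosen after the data were seen. The core subunits of complex I as a list are not reported here.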

Additional observations from a re-analysis of the deposited data

Results flagged for a closer look

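The mitochondrial ribosomal RNAs, which are not among the subunit genes and enter no comparison above, also held a larger share of counts in the transduced cells. Together mt-Rnr1 and mt-Rnr2 took 0.0717% and 0.0883% of all counts in WT A20, 0.252% and 0.317% in control sgRNA (mean 0.284%) and 0.210% and 0.218% in Cd4 sgRNA (mean 0.214%). Per 100 counts on the 13 mitochondrial protein-coding genes they had 2.78 and 3.39 counts in WT A20, 3.95 and 2.82 in control sgRNA and 3.65 and 3.26 in Cd4 sgRNA, ranges that overlap between the groups. The libraries were selected for poly(A) RNA, and the difference in share was not tested.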

How the results depend on the processing

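Of 342 recomputed counts of calls and medians, 286 stayed within 1.5 times the reported count or within the spread between replicates, 55 moved and 1 changed sign. With DESeq2, nuclear members called in control sgRNA against WT A20 were 5 higher and 8 lower, where 17.7% and 15.7% of all genes were. In Cd4 sgRNA against control sgRNA 1 mitochondrial and 11 nuclear members were lower, where 7.13% of all genes were. Nuclear library size without TMM gave 5 nuclear members higher in control sgRNA, where 16.9% of all genes were. With only the 2 groups compared, 0 higher and 1 lower nuclear members were called in control sgRNA against WT A20, where 7.19% and 6.11% of all genes were. In Cd4 sgRNA against WT A20 the counts were 12 and 41, where 31.3% and 30.4% of all genes were called. In Cd4 sgRNA against WT A20, voomLmFit and the absence of a low-count filter each gave 1 higher nuclear member, where 8.37% and 6.73% of all genes were higher. The length correction gave 5 higher nuclear members in control sgRNA (median -0.0011), where 15.2% of all genes were higher. In Cd4 sgRNA it gave 5 higher and 11 lower (median -0.0201), where 10.4% and 10.6% of all genes were. The median was -0.0403 in Cd4 sgRNA against control sgRNA. The cause of these changes was not tested.

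With each library left out in turn, the mitochondrial members higher than in WT A20 ranged from 2 to 13 in control sgRNA and from 1 to 13 in Cd4 sgRNA, and from 0 to 8 were lower in Cd4 sgRNA against control sgRNA. Nuclear members higher and lower ranged from 0 to 16 and 0 to 28 in control sgRNA against WT A20, from 0 to 13 and 0 to 40 in Cd4 sgRNA against WT A20, and from 0 to 13 and 0 to 39 in Cd4 sgRNA against control sgRNA. The nuclear median ranged from -0.12 to 0.0027 in control sgRNA against WT A20, where it turned positive without control sgRNA replicate 1, and from -0.18 to -0.0502 in Cd4 sgRNA against control sgRNA. Among 3078 recomputed values of named genes, 2692 kept their direction and their side of the threshold, 243 lost and 142 gained a call, and 1 turned, which was Myc in Cd4 sgRNA against control sgRNA at -0.20 without control sgRNA replicate 2 and 0.28 without its replicate 1. No alternative scaling moved the median of all genes by over 0.1. The share of all genes called also moved with the library left out. It fell without a WT A20 or Cd4 sgRNA library and rose without a control sgRNA library. The ranges of calls above carry this shift over all genes, and each such fit leaves 1 library in a group. At the top of each range for nuclear members, their share called higher lay below that of all genes. Their share called lower lay above it.

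The labels number replicates in each group but do not say that a number marks a shared day or batch, and deviations of same-numbered libraries from their group means had correlations of -0.0069, 0.0064 and -0.14. With the replicate number as a block, 1 nuclear member was higher in control sgRNA and 1 in Cd4 sgRNA against WT A20, and 12 and 11 mitochondrial members were higher. Of all genes, 12.6% and 8.33% were higher in this fit. Depth limits the lowest isoforms to values near the floor of 3 counts per library.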
